A study of Mus musculus with 12 samples.

Results

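The 3 arrays of cells named reprogrammed mammary were compared with the 3 arrays of adult lung epithelial cells, all genes on the array being considered. These 6 arrays were chosen by their sample titles, of 12 in the series. The study concerned how stroma redirects the lineage of adult cells in vivo. The other 6 arrays, 3 of adult mammary cells and 3 of cells named reprogrammed lung, entered the estimate of the spread and a set of narrower comparisons.

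The adult lung and adult mammary cells came from female mice 10 weeks old. After perfusion, the lung was minced and digested with trypsin and collagenase A for 45 minutes, and its epithelial cells were gathered over 7 low-speed spins. The mammary gland was digested in the same enzymes for 30 minutes, with 5 spins. No cell sort was stated, so cells other than epithelium could remain in every group. The labels describe single cells placed in Matrigel for transplantation, with embryonic lung epithelium as another cell source, but not how the reprogrammed cells were recovered. Whether the word mammary in a reprogrammed sample names the donor cell or the tissue it formed was not given. No strain, transgene or further treatment was given for these groups. Nothing said that the arrays of a group came from separate animals, so the p-values measure the spread between these samples, which may be technical.

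Lung and mammary epithelium share a simple layout, a branched tube lined by keratin-bearing cells, but differ in what they make. In the lung, alveolar type II cells secrete surfactant, thin type I cells form the surface for gas exchange, and the airways carry club cells and ciliated cells, all under the transcription factor Nkx2-1. In the mammary gland, luminal cells secrete milk and carry the receptors for oestrogen, progesterone and prolactin, while contractile basal cells surround them.

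Milk protein genes were among the largest increases and surfactant genes among the largest decreases. The sequence before the start of 5 genes described here, from the milk, acute phase and lung lists, is shown because each holds a motif of a factor classically tied to such genes. The first motif, TTCNNNGAA, is bound by STAT factors such as Stat5, which acts downstream of the prolactin receptor, and by Stat3 in the acute phase response of liver. It is its own reverse complement, so 1 strand was searched for both. The second, CTCAAG, is the core bound by Nkx2-1 and was searched on both strands. Each line gives the 250 bases before the RefSeq start on the gene's own strand in the build GRCm38.p6, with the matches in capitals.
Csn1s1: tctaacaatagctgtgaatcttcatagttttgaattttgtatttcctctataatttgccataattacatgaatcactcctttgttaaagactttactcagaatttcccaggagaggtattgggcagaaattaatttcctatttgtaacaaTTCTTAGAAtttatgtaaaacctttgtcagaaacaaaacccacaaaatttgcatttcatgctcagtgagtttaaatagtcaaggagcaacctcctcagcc
Csn2: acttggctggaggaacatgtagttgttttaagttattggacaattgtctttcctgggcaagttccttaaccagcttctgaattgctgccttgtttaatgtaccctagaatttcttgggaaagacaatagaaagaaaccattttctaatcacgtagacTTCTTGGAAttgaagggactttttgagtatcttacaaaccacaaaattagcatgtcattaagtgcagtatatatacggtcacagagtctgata
Fgb: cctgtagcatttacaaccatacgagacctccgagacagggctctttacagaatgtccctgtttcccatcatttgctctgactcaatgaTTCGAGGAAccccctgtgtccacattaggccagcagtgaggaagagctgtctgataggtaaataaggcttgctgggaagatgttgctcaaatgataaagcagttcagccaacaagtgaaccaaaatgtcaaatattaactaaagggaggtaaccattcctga
Sftpb: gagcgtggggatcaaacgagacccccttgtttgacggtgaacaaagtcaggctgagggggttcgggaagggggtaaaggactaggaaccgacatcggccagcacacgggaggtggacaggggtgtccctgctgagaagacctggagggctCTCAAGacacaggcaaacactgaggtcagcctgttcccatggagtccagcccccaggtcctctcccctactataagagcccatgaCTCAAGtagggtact
Sftpa1: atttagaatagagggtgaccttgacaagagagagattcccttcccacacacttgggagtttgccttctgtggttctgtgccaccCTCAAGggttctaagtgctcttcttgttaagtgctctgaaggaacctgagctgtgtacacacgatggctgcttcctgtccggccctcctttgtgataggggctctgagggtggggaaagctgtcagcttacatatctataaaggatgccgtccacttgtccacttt
The stretches lie at chr5:87665958-87666207 on the plus strand for Csn1s1, chr5:87699426-87699675 on the minus strand for Csn2, chr3:83049864-83050113 on the minus strand for Fgb, chr6:72304360-72304609 on the plus strand for Sftpb and chr14:41131538-41131787 on the plus strand for Sftpa1. Both casein matches lie near 100 bases before the start, at -100 in Csn1s1 and -93 in Csn2. Of 32851 promoters in the table, 7.02% held TTCNNNGAA in this window, and the share was 6.1% among promoters of the genes that rose and 4.75% among those of the genes that fell. CTCAAG was in 13.3% of all promoters, in 13% of those of genes that rose and in 11.2% of those of genes that fell. Among 12 milk genes with a promoter in the table, Csn1s1, Csn2 and Glycam1 held the STAT motif. Among 15 alveolar type II genes with one, Sftpa1 and Sftpb held the Nkx2-1 motif. A match of these letters describes the sequence and is not evidence of binding.

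Levels below are log2 of the background-corrected signal minus the 75th percentile of its array, so 0 is the 75th percentile, and a level of one probe cannot be set against that of another. Differences are reprogrammed mammary minus adult lung on this log2 scale, from limma over all 12 arrays, with p adjusted by the Benjamini-Hochberg method over 24504 tested features. There were 3 arrays in each group. The 75th percentile signal ran from 442 to 473 on the reprogrammed mammary arrays, against 303 to 329 on the adult lung arrays, and 74.5% to 77.8% of probes against 72.1% to 76.6% were well above background. Of the tested features, 387 were not above background on any reprogrammed mammary array and 791 on any adult lung array. Where no array of a group was above background, the difference is given as a bound, "at least N-fold", against the lowest signal marked above background. Slides could be told apart from the groups only in part, since 1 slide held an array of both groups (reprogrammed mammary replicate 2 and adult lung replicate 2). Reprogrammed mammary replicate 2 also had the most tested features without a value, 126, after outlier spots were removed.

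Cells named reprogrammed mammary and adult lung differed widely. At an adjusted p below 0.05, 6356 features differed (25.9% of those tested), with 3549 higher (14.5%) and 2807 lower (11.5%) in reprogrammed mammary. Of these, 2348 were at least 2-fold higher and 2050 at least 2-fold lower. Every count of list members below is to be read beside the 25.9%, 14.5% and 11.5% given here. The 3 and 3 arrays did not overlap for 13938 features (56.9%). The median difference over all tested features was 0.03. Pearson's r across features between a reprogrammed mammary array and the mean of a group was 0.974 to 0.987 for the other arrays of its own group and 0.870 to 0.873 for adult lung, features not being independent. On the slide that held both groups, 3513 of 3514 features called higher were higher and 2798 of 2798 called lower were lower, but these features had been called with the same arrays included. With slide as a fixed term in the model the calls fell to 1231 higher and 1187 lower.

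Casein genes were among the largest increases. Csn3, kappa-casein, which keeps casein micelles in solution, had levels of 5.26, 4.60 and 4.70 in reprogrammed mammary, against -6.88, -7.30 and -4.28 in adult lung. It was above background on 1 of the 3 adult lung arrays, replicate 3, and the groups lay far apart (difference 11.01, SE 0.84, adjusted p = 1.77e-05). Csn1s2a, an alpha-S2-like casein that carries calcium, had 4.08, 2.58 and 2.21 in reprogrammed mammary, against -6.78, -7.11 and -7.34 in adult lung. No adult lung array was above background for it, so it was at least 237-fold higher in reprogrammed mammary (adjusted p = 0.00215). Csn1s1, the alpha-S1 casein whose promoter is printed above, had 3.05, 1.63 and 1.42 in reprogrammed mammary, against -6.85, -7.34 and -7.45 in adult lung, at least 125-fold higher (adjusted p = 0.00198). In all of these, replicate 1 was the highest reprogrammed mammary array.

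Other secreted and membrane products of milk-producing cells rose too. Of 15 tested members of the milk protein and secretion list, 10 rose and none fell (66.7% called, against 25.9% of all features), and the list's median difference was 3.78 with the 6 members that were not above background on any adult lung array set at their bound, beside 0.03 for all features. Wfdc18, a secreted protein with a whey acidic protein domain, had 4.79, 5.16 and 4.68 in reprogrammed mammary, against -5.05, -4.44 and -4.50 in adult lung, with 2 of 3 adult lung arrays above background (difference 9.54, SE 0.79, adjusted p = 2.8e-05). Btn1a1, butyrophilin, which coats milk fat globules, had 2.68, 0.95 and 1.86 in reprogrammed mammary, against -6.78, -7.21 and -7.36 in adult lung, at least 108-fold higher (adjusted p = 0.00019). Lalba, alpha-lactalbumin, the regulatory subunit of lactose synthase, had 4.25, 2.73 and 3.26 in reprogrammed mammary, against -2.24, -2.80 and -2.51 in adult lung (difference 5.93, SE 0.85, adjusted p = 0.0007). Ltf, lactoferrin, an iron-binding antimicrobial protein of milk and other secretions, had 5.50, 4.99 and 6.0 in reprogrammed mammary, against 0.79, 1.15 and 2.31 in adult lung (difference 4.08, SE 1.15, adjusted p = 0.0248), a call that was lost without any 1 of the 6 arrays other than adult lung replicate 3 (adjusted p of 0.0505 to 0.0852). Every reprogrammed mammary array lay above every adult lung array for these genes, but Wfdc18 and Btn1a1 were chosen among genes without overlap. Over all features the arrays of the 2 groups did not overlap for 56.9%.

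Some milk genes did not pass the test over the 12 arrays. Csn2, beta-casein, the main casein of mouse milk, had 0.28, -2.10 and -2.41 in reprogrammed mammary, against -6.89, -7.25 and -7.45 in adult lung (adjusted p = 0.0658), without overlap. Wap, whey acidic protein, had -2.61, -3.19 and -3.32 in reprogrammed mammary, against -4.27, -4.61 and -4.11 in adult lung (difference 1.29, SE 1.1, adjusted p = 0.449). Glycam1, a mucin-like milk protein, had -1.82, -0.11 and -3.66 in reprogrammed mammary, against -6.87, -7.33 and -7.44 in adult lung (adjusted p = 0.106). Unlike Csn2 and Wap, Glycam1 was highest on replicate 2 of reprogrammed mammary. All 3 passed when only the 2 groups were fitted, with adjusted p of 0.00108 for Csn2, 0.00533 for Wap and 0.00298 for Glycam1. Their SD was 1.48, 0.376 and 1.77 in reprogrammed mammary and 4.82, 2.93 and 4.23 in reprogrammed lung. In adult mammary it was 2.85, 0.702 and 4.15. Both of the latter groups enter the estimate of the spread. These 3 genes were chosen for mention after their values were seen. In the lactose synthesis list, 3 of 7 members rose, including the glucose transporter Slc2a1, which had 1.84, 2.03 and 1.90 in reprogrammed mammary, against -0.94, -0.46 and 0.41 in adult lung (difference 2.25, SE 0.38, adjusted p = 0.00158).

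**Figure D1:**
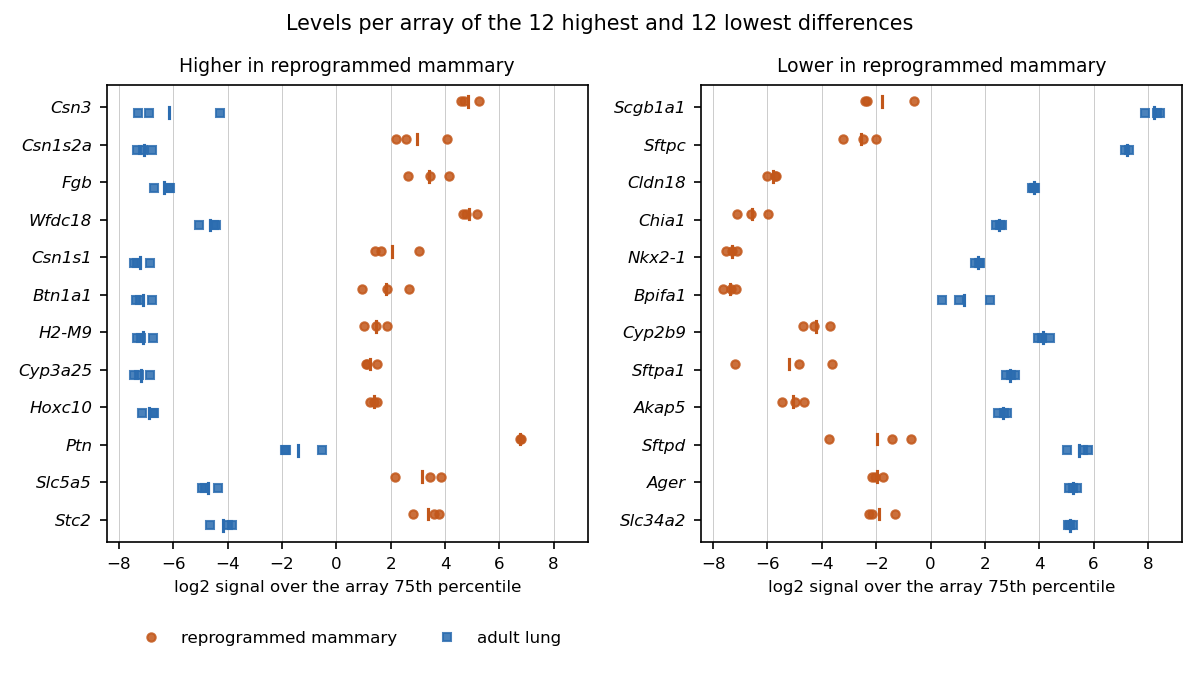
Level of the 12 genes with the largest increase and the 12 with the largest decrease on each reprogrammed mammary and adult lung array (log2 relative to the array's 75th percentile), with 1 point per array and a bar at the mean. The 24 genes were chosen among those whose groups do not overlap, and levels below background are bounds.

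Genes of the luminal lineage rose with the milk genes. In the mammary luminal transcription factor list 12 of 15 tested members rose and 1 fell (median difference 3.43, 2 members standing at their bound), and in the hormone-sensing luminal list 8 of 13 rose and 1 fell (2.66). Prlr, the prolactin receptor, had 4.54, 3.64 and 4.73 in reprogrammed mammary, against -3.39, -2.52 and -3.12 in adult lung (difference 7.32, SE 0.63, adjusted p = 3.5e-05). Esr1, the oestrogen receptor, had -0.86, -0.71 and -0.51 in reprogrammed mammary, against -6.73, -5.96 and -5.78 in adult lung, with no adult lung array above background, at least 18.9-fold higher (adjusted p = 5.58e-05). Pgr, the progesterone receptor, chosen after its values were seen, had 4.44, 4.07 and 4.89 in reprogrammed mammary, against -0.09, -0.62 and -0.87 in adult lung (difference 5.00, SE 0.67, adjusted p = 0.000437). The receptors for the 3 hormones that drive the gland were thus each higher on all 3 reprogrammed mammary arrays. Over all features the arrays of the 2 groups did not overlap for 56.9%.

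Several regulators of the gland followed. Cited1, a transcriptional coactivator of oestrogen receptor, had 3.23, 3.90 and 3.05 in reprogrammed mammary, against -2.41, -2.46 and -2.60 in adult lung (difference 5.88, SE 0.66, adjusted p = 0.00017). Tfap2c, a factor of luminal differentiation, had 3.22, 2.84 and 2.99 in reprogrammed mammary, against -3.00, -3.21 and -1.77 in adult lung (difference 5.68, SE 0.57, adjusted p = 8.36e-05). Msx2, a homeobox factor of mammary bud development, had -1.36, -1.69 and -1.44 in reprogrammed mammary, against -6.52, -6.55 and -6.66 in adult lung, at least 10.8-fold higher (adjusted p = 5.08e-06). Gata3, needed to maintain luminal cells and chosen after its values were seen, had 4.08, 3.99 and 4.34 in reprogrammed mammary, against -0.65, -0.05 and -0.35 in adult lung (difference 4.48, SE 0.26, adjusted p = 4.2e-06). Each of these 4 separated the groups without overlap, as did 56.9% of all features. Tbx3, a T-box factor used in both organs and likewise chosen after its values were seen, was the list's exception and fell, with 3.03, 2.81 and 3.46 in reprogrammed mammary, against 5.10, 4.83 and 4.77 in adult lung (difference -1.80, SE 0.29, adjusted p = 0.00124).

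Of 8 tested luminal progenitor genes, 5 rose and 1 fell, and 3 rose when any 1 array other than adult lung replicate 3 was left out. Aldh1a3, a retinaldehyde dehydrogenase that marks these progenitors, had 1.85, 2.09 and 2.19 in reprogrammed mammary, against -5.82, -4.31 and -4.30 in adult lung, with 2 adult lung arrays above background (difference 6.85, SE 0.69, adjusted p = 8.75e-05). Elf5, the factor that sets the alveolar secretory fate in the mammary gland, had 0.26, -0.43 and 0.10 in reprogrammed mammary, against -4.21, -3.20 and -3.01 in adult lung (difference 3.45, SE 0.59, adjusted p = 0.00179). Kcnn4, a calcium-activated potassium channel, had 1.18, 1.20 and 1.01 in reprogrammed mammary, against -2.36, -1.85 and -1.87 in adult lung (difference 3.15, SE 0.45, adjusted p = 0.000701). Slc5a5, the transporter that carries iodide into milk, had 3.44, 2.15 and 3.84 in reprogrammed mammary, against -4.36, -4.94 and -4.84 in adult lung, with 1 adult lung array above background (difference 7.86, SE 0.97, adjusted p = 0.000292). Stc2, a secreted glycoprotein, had 3.58, 2.82 and 3.77 in reprogrammed mammary, against -4.63, -3.84 and -4.0 in adult lung, with 2 adult lung arrays above background (difference 7.55, SE 0.75, adjusted p = 7.82e-05). The 5 genes named here were each lower on every adult lung array. Slc5a5 and Stc2 are not members of the luminal progenitor list and were chosen among genes without overlap. Ltf, given above with the milk genes, is a member that rose. Over all features the arrays of the 2 groups did not overlap for 56.9%.

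Genes of the basal, contractile layer were higher in part. Of 19 tested members 10 rose and none fell, with a median difference of 1.80. Oxtr, the oxytocin receptor through which myoepithelial cells contract, had -0.02, -1.88 and -0.33 in reprogrammed mammary, against -3.65, -4.43 and -4.31 in adult lung (difference 3.39, SE 0.63, adjusted p = 0.00282). Cdh3, P-cadherin, had -0.29, -0.83 and -0.53 in reprogrammed mammary, against -3.95, -3.70 and -3.13 in adult lung (difference 3.04, SE 0.32, adjusted p = 0.00012). Trp63, the master factor of basal epithelium, had -0.96, -1.64 and -1.55 in reprogrammed mammary, against -6.85, -6.01 and -3.13 in adult lung, above background on 1 adult lung array, replicate 3 (difference 3.95, SE 0.91, adjusted p = 0.00952).

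Adult lung replicate 3 stood apart for basal and squamous genes. Krt5, a basal keratin, had 2.44, 1.54 and 2.29 in reprogrammed mammary, against -3.46, -2.92 and 3.11 in adult lung, so that replicate 3 exceeded every reprogrammed mammary array and the test was not passed (difference 3.19, SE 1.40, adjusted p = 0.124). Without that array the difference was 5.29 and passed (adjusted p = 0.000435). Wnt10a, a Wnt ligand of basal cells and skin appendages, had -1.65, -2.88 and -1.28 in reprogrammed mammary, against -6.85, -7.10 and -2.54 in adult lung, with the same array again high (difference 3.56, SE 0.99, adjusted p = 0.0229), and the difference was 5.04 without it (adjusted p = 0.000129). The Wnt10a call was lost without reprogrammed mammary replicate 1 or 3 or adult lung replicate 1 or 2 (adjusted p of 0.0725 to 0.0927) and with only the 2 groups fitted (0.0587). The summed level of a list is log2 of the sum of its members' signal, over members with a value on every array. For the cornified and squamous list it was 5.43, 5.07 and 5.32 in reprogrammed mammary and 2.20, 2.46 and 7.18 in adult lung, the last value being that array. Of this list's 10 tested members 2 rose and 1 fell, and 4 rose and 1 fell without that array. The part that this material had in the basal comparison was not tested.

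Keratins and junction proteins shared by simple epithelia were higher as well. In the pan-epithelial list 14 of 24 tested members rose and none fell, and 8 or 9 rose when any 1 array other than adult lung replicate 3 was left out. Epcam, a homophilic adhesion protein of epithelia, had 4.70, 4.25 and 4.87 in reprogrammed mammary, against 0.53, 0.97 and 0.87 in adult lung (difference 3.82, SE 0.63, adjusted p = 0.00152). Krt8, a simple-epithelial keratin, had 6.41, 6.31 and 6.43 in reprogrammed mammary, against 2.96, 3.45 and 3.40 in adult lung (difference 3.11, SE 0.52, adjusted p = 0.00157), and its partner Krt18 had 5.99, 5.86 and 6.01 in reprogrammed mammary, against 2.29, 2.60 and 2.41 in adult lung (difference 3.52, SE 0.45, adjusted p = 0.000365). Krt19 had 4.96, 4.89 and 5.05 in reprogrammed mammary, against 1.0, 1.29 and 1.12 in adult lung (difference 3.83, SE 0.68, adjusted p = 0.00221). In a bulk sample, more cells of a type and more RNA per cell cannot be told apart, so these values do not say whether reprogrammed mammary held a larger share of epithelium.

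The claudin family, the sealing proteins of tight junctions, divided by member. Of 19 tested claudins 7 rose and 2 fell. Cldn6 had 2.65, 2.24 and 2.55 in reprogrammed mammary, against -4.96, -3.01 and -4.27 in adult lung, with 2 adult lung arrays above background (difference 6.56, SE 0.60, adjusted p = 4.96e-05), and Cldn4 had 3.15, 2.91 and 3.16 in reprogrammed mammary, against -2.02, -2.10 and -0.67 in adult lung (difference 4.67, SE 0.72, adjusted p = 0.00107). Cldn18, whose lung form seals the alveolar epithelium, had -5.72, -5.67 and -6.02 in reprogrammed mammary, against 3.73, 3.86 and 3.81 in adult lung, not above background on any reprogrammed mammary array and at least 486-fold lower (adjusted p = 0.000393). Cldn5, the claudin of endothelium, had 0.65, 0.76 and 1.05 in reprogrammed mammary, against 4.29, 4.37 and 4.08 in adult lung (difference -3.42, SE 0.42, adjusted p = 0.000277). With slide as a fixed term the adjusted p was 0.0542 for Epcam, 0.0547 for Krt8, 0.0633 for Krt19 and 0.0598 for Cldn4.

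Surfactant genes were among the largest decreases. Of 19 tested alveolar type II genes 13 fell and 1 rose, with a median difference of -3.83. Sftpc, surfactant protein C, made by type II cells alone in the adult lung, had -2.02, -2.48 and -3.22 in reprogrammed mammary, against 7.17 and 7.30 in adult lung (no value on the replicate 2 array) (difference -9.81, SE 0.54, adjusted p = 5.91e-06). Sftpb, surfactant protein B, whose promoter is printed above, had -2.26, -1.90 and -2.50 in reprogrammed mammary, against 3.84, 4.29 and 3.98 in adult lung (difference -6.26, SE 0.28, adjusted p = 1.85e-06) and was chosen after its values were seen. Sftpa1 and Sftpd, the collectins of surfactant, had -7.20, -4.84 and -3.63 in reprogrammed mammary, against 2.77, 3.09 and 2.96 in adult lung for Sftpa1, with 2 reprogrammed mammary arrays above background (difference -8.16, SE 1.22, adjusted p = 0.000853), and -0.73, -3.75 and -1.41 in reprogrammed mammary, against 5.03, 5.78 and 5.62 in adult lung for Sftpd (difference -7.44, SE 1.20, adjusted p = 0.00132). Adult lung arrays were close together for all 4, and reprogrammed mammary arrays spread more, above all for Sftpa1.

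Transport and storage genes of type II cells changed less evenly. Slc34a2, the sodium phosphate cotransporter of the alveolar surface, had -1.29, -2.25 and -2.15 in reprogrammed mammary, against 5.12, 5.26 and 5.07 in adult lung (difference -7.04, SE 0.65, adjusted p = 5.19e-05). Lyz1, a lysozyme made by type II cells, had -1.37, 0.10 and -1.89 in reprogrammed mammary, against 3.20, 3.63 and 3.26 in adult lung (difference -4.42, SE 0.99, adjusted p = 0.00793), and Abca3, the lipid pump of lamellar bodies, had 0.52, 0.06 and 0.66 in reprogrammed mammary, against 1.86, 1.98 and 1.86 in adult lung (difference -1.49, SE 0.28, adjusted p = 0.00314). Chil1, a chitinase-like protein, was the member that rose, with 5.08, 3.51 and 4.61 in reprogrammed mammary, against 0.99, 1.37 and 1.12 in adult lung (difference 3.24, SE 0.82, adjusted p = 0.0146), a call lost without reprogrammed mammary replicate 1. Lyz1, Abca3 and Chil1 were chosen after their values were seen. Chia1, acidic mammalian chitinase, had -7.12, -6.0 and -6.61 in reprogrammed mammary, against 2.41, 2.55 and 2.64 in adult lung and was at least 202-fold lower (adjusted p = 2.84e-06).

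Type I genes fell nearly as a group, 14 of 15 tested, with a median difference of -2.93. Ager, a multiligand receptor of the immunoglobulin family and a common type I marker, had -1.74, -2.16 and -2.04 in reprogrammed mammary, against 5.26, 5.41 and 5.11 in adult lung (difference -7.24, SE 0.28, adjusted p = 9.8e-07). Hopx, a homeodomain-only factor of type I cells, had -0.68, -0.32 and -0.67 in reprogrammed mammary, against 4.66, 4.73 and 4.70 in adult lung (difference -5.25, SE 0.18, adjusted p = 8.02e-07). Clic5, a chloride channel protein tied to the cytoskeleton, had -1.71, -2.04 and -1.72 in reprogrammed mammary, against 4.08, 4.22 and 4.10 in adult lung (difference -5.95, SE 0.36, adjusted p = 4.61e-06). Akap5, an anchor for protein kinase A, had -4.67, -5.00 and -5.47 in reprogrammed mammary, against 2.49, 2.70 and 2.81 in adult lung, with 1 reprogrammed mammary array above background (difference -7.71, SE 0.51, adjusted p = 7.76e-06). Col4a3, a basement membrane collagen of alveoli, had -4.58, -4.10 and -3.56 in reprogrammed mammary, against 1.88, 1.88 and 1.5 in adult lung (difference -5.83, SE 0.26, adjusted p = 1.85e-06). The exception, Aqp5, a water channel named after its value was seen, did not pass the test at a difference of 1.01 (adjusted p = 0.251).

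Airway genes fell likewise. Of 18 tested airway secretory genes 12 fell and none rose. Scgb1a1, the club cell secretory protein, had one of the largest decreases, with -0.62, -2.34 and -2.42 in reprogrammed mammary, against 7.90, 8.45 and 8.33 in adult lung (difference -10.02, SE 0.74, adjusted p = 1.51e-05). Cyp2f2, the club cell cytochrome P450, had -0.96, -1.21 and -1.54 in reprogrammed mammary, against 4.67, 5.62 and 5.69 in adult lung (difference -6.56, SE 0.39, adjusted p = 4.53e-06). Bpifa1, a secreted airway defence protein, had -7.16, -7.35 and -7.64 in reprogrammed mammary, against 0.42, 1.05 and 2.20 in adult lung, at least 81.4-fold lower (adjusted p = 0.000432). Reprogrammed mammary arrays were above background for Scgb1a1 and Cyp2f2 and below it for Bpifa1.

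Ciliated cell genes fell in 10 of 19 tested members, and none rose. Foxj1, the master factor of motile cilia, had -5.63, -7.22 and -4.77 in reprogrammed mammary, against -2.48, -2.12 and -2.23 in adult lung, with 1 reprogrammed mammary array above background (difference -3.60, SE 0.92, adjusted p = 0.0157), and its adjusted p was 0.0638 without reprogrammed mammary replicate 2 and 0.0514 without adult lung replicate 2. Dynlrb2, a dynein light chain, had -3.89, -4.17 and -4.04 in reprogrammed mammary, against -0.22, 0.16 and 0.17 in adult lung (difference -4.07, SE 0.33, adjusted p = 2.54e-05). Sntn, sentan, a protein of the ciliary tip, had -6.91, -7.14 and -7.42 in reprogrammed mammary, against -4.35, -3.18 and -3.71 in adult lung, at least 2.6-fold lower (adjusted p = 0.000659). Without adult lung replicate 2, 6 members fell.

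**Figure D2:**
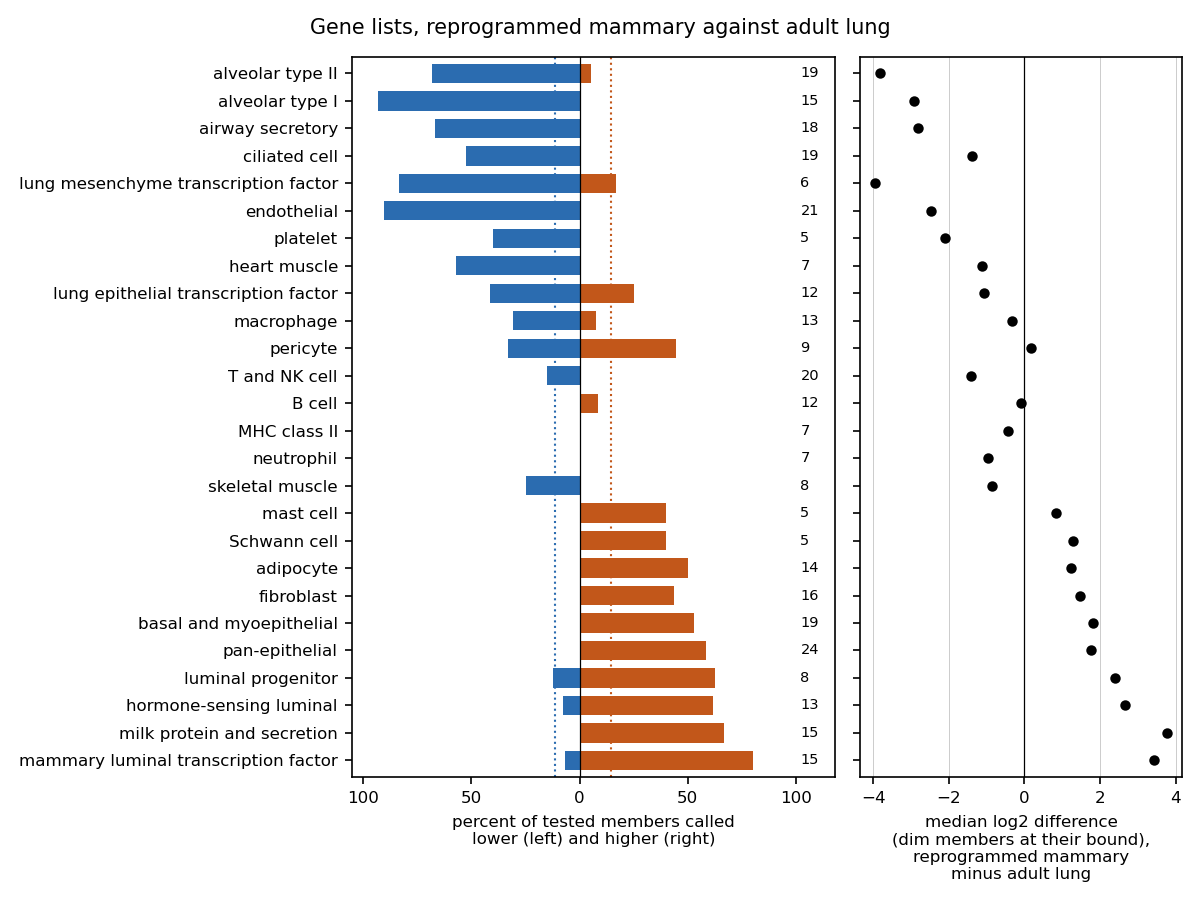
Percent of the tested members of each gene list called lower (left of 0) or higher (right of 0) in reprogrammed mammary than in adult lung at an adjusted p below 0.05, with the number tested and dotted lines at the 11.5% and 14.5% of all features, and beside it the median log2 difference of the list, members not above background in the lower group standing at their bound. Lung epithelial and endothelial lists lie on the lower side, with 14 of 15 alveolar type I and 19 of 21 endothelial genes, and mammary lists on the higher side, with 10 of 15 milk genes.

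The factors Nkx2-1 and Foxa2 were below background in reprogrammed mammary. Nkx2-1 had -7.11, -7.32 and -7.54 in reprogrammed mammary, against 1.63, 1.80 and 1.79 in adult lung, not above background on any reprogrammed mammary array and at least 117-fold lower (adjusted p = 4.53e-06). Foxa2, a forkhead factor of foregut epithelium, had -5.97, -5.83 and -6.88 in reprogrammed mammary, against -1.34, -0.70 and -0.66 in adult lung, at least 18.7-fold lower (adjusted p = 5.47e-05). Of 12 tested lung epithelial factors 5 fell and 3 rose, so that this list did not move one way. Irx2, an Iroquois factor active in both organs, was among those that rose, with 4.19, 3.30 and 4.28 in reprogrammed mammary, against 1.90, 1.93 and 1.74 in adult lung (difference 2.06, SE 0.64, adjusted p = 0.0371), a call that was lost without any 1 of the 6 arrays other than reprogrammed mammary replicate 2 (adjusted p of 0.087 to 0.114).

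Factors of lung mesenchyme, which are made by stromal cells, fell in 5 of 6 tested members, and the other rose. Tbx4, a T-box factor of lung mesenchyme, had -4.28, -3.91 and -4.37 in reprogrammed mammary, against 2.74, 2.73 and 2.50 in adult lung (difference -6.84, SE 0.29, adjusted p = 1.57e-06). Another probe of Tbx4 gave a smaller difference, -2.83 (adjusted p = 0.000232). Foxf1, a forkhead factor of lung mesenchyme and endothelium, had -2.07, -1.64 and -1.36 in reprogrammed mammary, against 4.50, 4.02 and 3.96 in adult lung (difference -5.85, SE 0.35, adjusted p = 4.61e-06), and Foxf2 had -7.17, -7.38 and -7.59 in reprogrammed mammary, against -1.14, -1.19 and -1.18 in adult lung, at least 15.5-fold lower (adjusted p = 1.81e-05). Tcf21, a factor of lung fibroblasts, had -1.75, -1.54 and -2.35 in reprogrammed mammary, against 2.34, 2.09 and 1.79 in adult lung (difference -3.95, SE 0.42, adjusted p = 0.000117). Meox2, a homeobox factor of mesoderm and the member that rose, had -2.33, -2.18 and -1.98 in reprogrammed mammary, against -3.14, -3.97 and -3.61 in adult lung (difference 1.41, SE 0.32, adjusted p = 0.00853) and was chosen after its values were seen. The 4 named factors that fell were above background on every adult lung array. Which cells this RNA came from was not tested.

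Hox genes, which record position along the body axis, split by paralog group. Among paralog groups 1 to 5, 4 of 11 tested genes fell and 1 rose, and among groups 6 to 13, 7 of 18 rose and none fell. Hoxc10, of a posterior group, had 1.38, 1.25 and 1.49 in reprogrammed mammary, against -6.75, -7.16 and -6.72 in adult lung, at least 79.2-fold higher (adjusted p = 1.1e-06). Another probe of Hoxc10 gave a smaller difference, 3.68 (adjusted p = 2.22e-05). Hoxd9 had 2.80, 2.96 and 2.85 in reprogrammed mammary, against -1.73, -2.57 and -0.51 in adult lung (difference 4.48, SE 0.41, adjusted p = 4.87e-05). Another probe of Hoxd9 did not pass (difference 0.62, adjusted p = 0.209), so the Hoxd9 change rests on 1 probe. Hoxd8 had -2.69, -2.63 and -2.36 in reprogrammed mammary, against -6.57, -7.02 and -6.35 in adult lung, at least 5.19-fold higher (adjusted p = 3.92e-06). Hoxa5, needed for lung morphogenesis, had -3.19, -3.20 and -3.11 in reprogrammed mammary, against 0.39, 0.47 and 0.41 in adult lung (difference -3.59, SE 0.23, adjusted p = 7.27e-06), and Hoxb5 had -3.11, -2.77 and -3.12 in reprogrammed mammary, against 0.52, 0.06 and -0.08 in adult lung (difference -3.17, SE 0.26, adjusted p = 2.6e-05). Hoxd4 was the anterior gene that rose, with -1.12, -1.29 and -1.52 in reprogrammed mammary, against -5.73, -5.30 and -5.70 in adult lung, at least 12.3-fold higher (adjusted p = 1.64e-05). The split was not complete, since Hoxa6 had -1.63, -1.63 and -2.22 in reprogrammed mammary, against -1.72, -1.48 and -2.18 in adult lung and did not pass (difference -0.03, SE 0.39, adjusted p = 0.974).

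**Figure D3:**
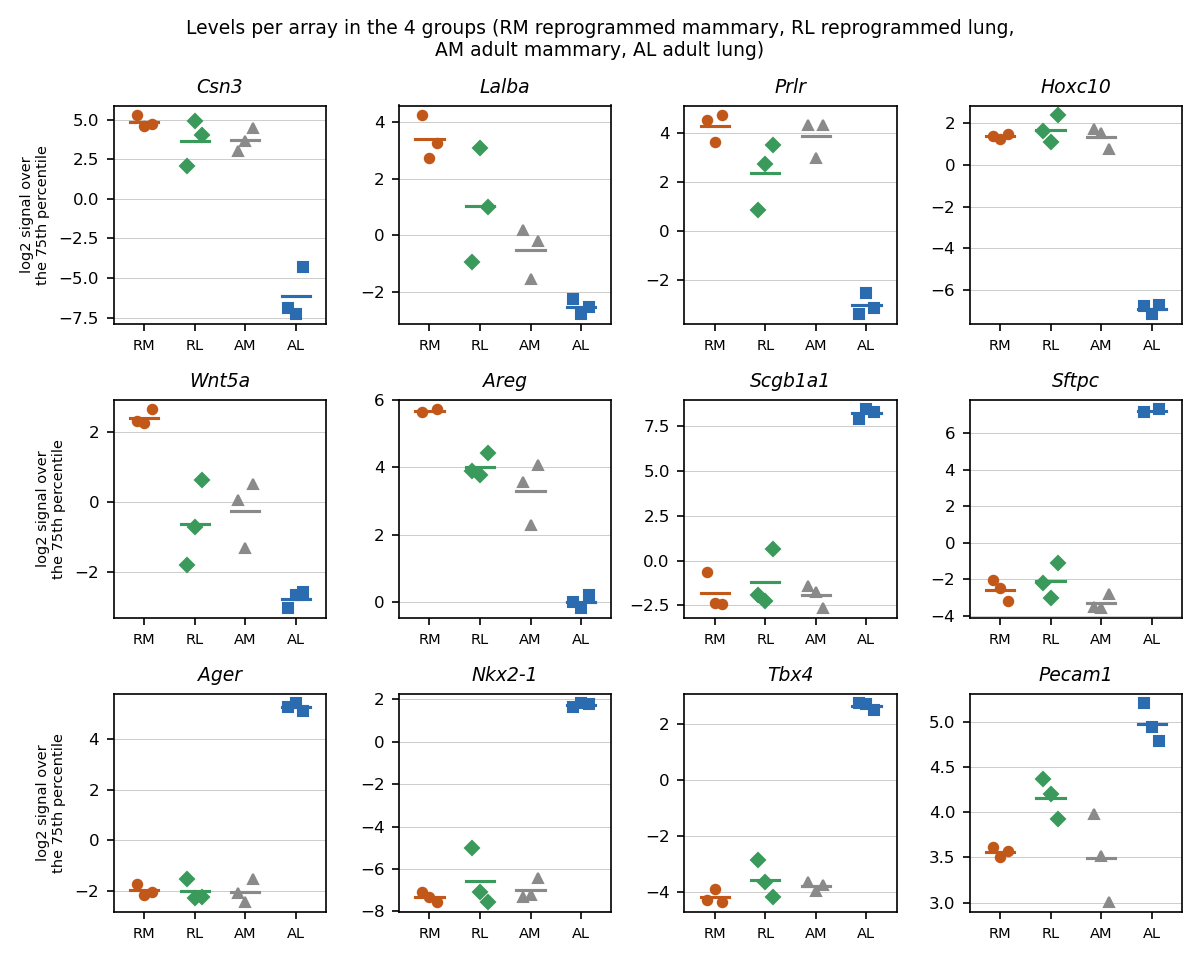
Level of chosen genes on every array of the 4 groups (log2 relative to the array's 75th percentile), in the order reprogrammed mammary (RM), reprogrammed lung (RL), adult mammary (AM) and adult lung (AL), with 1 point per array. For Nkx2-1 all 3 adult lung arrays lie between 1.63 and 1.80, above every array of the other groups.

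Endothelial genes fell nearly throughout. Of 21 tested members 19 fell and none rose, with a median difference of -2.48. Car4, carbonic anhydrase 4 of lung capillaries, had -0.41, -0.71 and -0.81 in reprogrammed mammary, against 4.83, 4.41 and 4.30 in adult lung (difference -5.16, SE 0.35, adjusted p = 9.51e-06). Calcrl, the receptor subunit for adrenomedullin, had -0.67, -0.81 and -0.66 in reprogrammed mammary, against 3.40, 3.49 and 3.40 in adult lung (difference -4.14, SE 0.24, adjusted p = 4.26e-06), and Pecam1, the junction protein CD31, had 3.61, 3.50 and 3.58 in reprogrammed mammary, against 5.21, 4.94 and 4.79 in adult lung (difference -1.42, SE 0.24, adjusted p = 0.00185). The summed level of the list was 5.95 to 6.18 in reprogrammed mammary and 8.17 to 8.38 in adult lung. The 2 groups of sums did not overlap.

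Fibroblast genes moved the other way. Of 16 tested members 7 rose and none fell, 4 rising without adult lung replicate 1, and the summed level was 8.06 to 8.35 in reprogrammed mammary and 6.78 to 7.21 in adult lung. Dcn, decorin, a proteoglycan that binds collagen, had 5.59, 5.50 and 5.97 in reprogrammed mammary, against 0.78, 0.62 and 2.25 in adult lung (difference 4.47, SE 0.69, adjusted p = 0.00108). Lum, lumican, had 2.45, 2.12 and 2.50 in reprogrammed mammary, against -3.17, -3.26 and -0.71 in adult lung (difference 4.74, SE 0.80, adjusted p = 0.00165), adult lung replicate 3 being the highest of its group for both. Serpinf1, a secreted serpin, had 3.23, 3.07 and 3.22 in reprogrammed mammary, against -1.24, -0.87 and -0.41 in adult lung (difference 4.01, SE 0.52, adjusted p = 0.000367). Col1a1, the main chain of type I collagen, had 5.62, 5.46 and 5.82 in reprogrammed mammary, against 3.12, 3.63 and 4.30 in adult lung (difference 1.95, SE 0.55, adjusted p = 0.0242), a call that was lost without any 1 of the 6 arrays other than adult lung replicate 3 (adjusted p of 0.0537 to 0.0941).

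The collagen family followed in part, with 16 of 37 tested members higher and 6 lower. Col28a1, a collagen of peripheral nerve, had -1.62, -2.01 and -2.01 in reprogrammed mammary, against -6.45, -7.17 and -5.72 in adult lung, at least 8.31-fold higher (adjusted p = 0.00282). Twist1, a mesenchymal factor, had -0.72, -0.68 and -0.63 in reprogrammed mammary, against -6.63, -5.71 and -7.47 in adult lung, at least 19.1-fold higher (adjusted p = 2.54e-05), and Prrx1, a paired-related factor of limb and body wall mesenchyme, had 3.67, 3.70 and 3.95 in reprogrammed mammary, against 0.78, 0.66 and 0.88 in adult lung (difference 3.00, SE 0.43, adjusted p = 0.000641). Of the 9 tested epithelial-mesenchymal transition genes these 2 rose and 1, Zeb1, a repressor of epithelial genes, fell (difference -1.62). Mfap4, a protein of elastic fibres, had 0.23, 0.28 and 0.73 in reprogrammed mammary, against 4.38, 4.70 and 4.50 in adult lung (difference -4.12, SE 0.39, adjusted p = 5.96e-05), whereas Eln, elastin itself, had 3.88, 3.54 and 4.10 in reprogrammed mammary, against 2.82, 3.62 and 3.81 in adult lung and did not pass (difference 0.42, SE 0.51, adjusted p = 0.612).

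Pericyte genes were divided, 4 of 9 higher and 3 lower. Rgs5, a regulator of G protein signalling, had 1.43, 0.69 and 1.09 in reprogrammed mammary, against -2.54, -2.68 and -0.89 in adult lung (difference 3.11, SE 0.51, adjusted p = 0.0014), and Higd1b had 0.50, 0.42 and 0.64 in reprogrammed mammary, against 3.02, 3.66 and 3.53 in adult lung (difference -2.89, SE 0.28, adjusted p = 7.09e-05). Upk3b, a marker of mesothelium, which covers the lung, had -5.60, -4.86 and -6.21 in reprogrammed mammary, against -1.99, -0.79 and -1.37 in adult lung, with 1 reprogrammed mammary array above background (difference -4.18, SE 0.63, adjusted p = 0.000955).

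Several adipocyte markers were higher in reprogrammed mammary. Of 14 tested adipocyte genes 7 rose and none fell. Fabp4, the fatty acid binding protein of adipocytes and capillaries, had 6.31, 5.95 and 6.13 in reprogrammed mammary, against 1.48, 1.35 and 2.14 in adult lung (difference 4.47, SE 0.30, adjusted p = 1.74e-05), and Adipoq, adiponectin, had -0.04, -1.49 and -2.80 in reprogrammed mammary, against -4.31, -5.34 and -5.65 in adult lung, with 1 adult lung array above background (difference 3.65, SE 0.63, adjusted p = 0.00199). Adipoq spread widely within reprogrammed mammary, replicate 1 being the highest. Ngfr, the low-affinity neurotrophin receptor, which Schwann cells and basal mammary cells make, had 2.38, 3.39 and 2.82 in reprogrammed mammary, against -0.97, -2.66 and -1.91 in adult lung (difference 4.71, SE 0.68, adjusted p = 0.00071). Another probe of Ngfr gave a smaller difference, 2.28 (adjusted p = 0.00153). The summed adipocyte level overlapped between the groups, at 3.95 to 4.49 in reprogrammed mammary and 3.78 to 4.11 in adult lung. The part that adipocytes, fibroblasts and endothelium had in the differences of other genes was not tested.

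**Figure D4:**
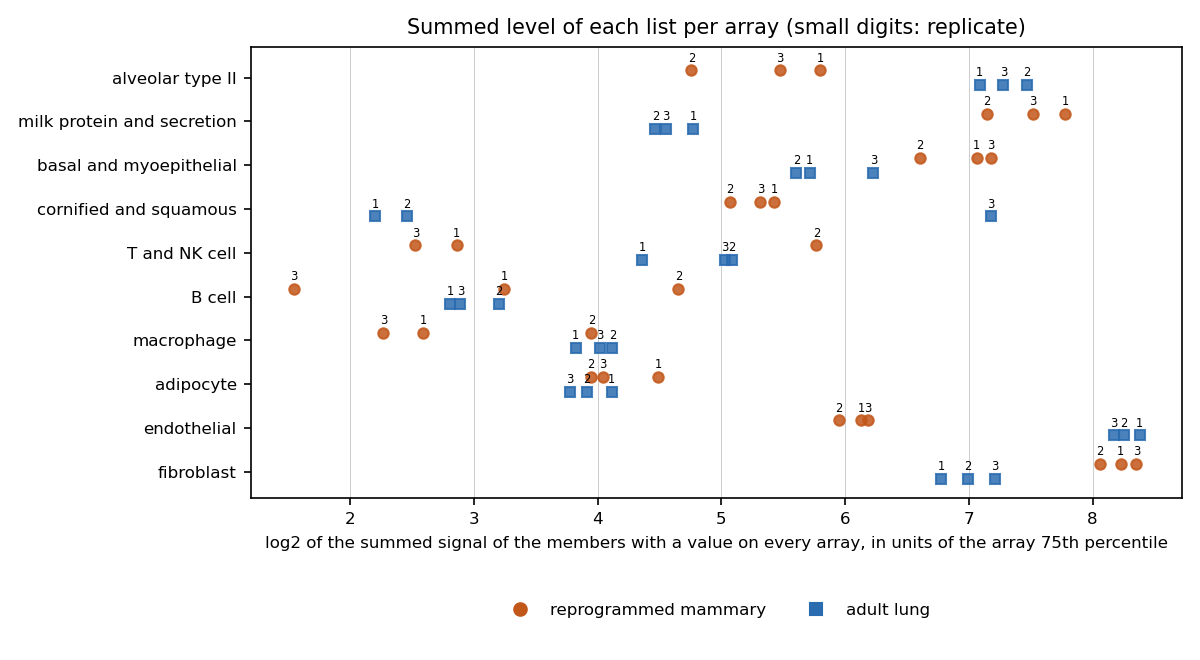
Summed level of cell type lists on each reprogrammed mammary and adult lung array (horizontal axis, log2 of the summed signal of the members with a value on every array, in units of the array's 75th percentile), small digits giving the replicate. The endothelial sum is 5.95 to 6.18 in reprogrammed mammary and 8.17 to 8.38 in adult lung, while the T and NK cell sum is 2.86, 5.77 and 2.53 in reprogrammed mammary, replicate 2 standing above the others.

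Immune genes showed few shared changes, and reprogrammed mammary replicate 2 stood apart from its group. The summed T and NK cell level was 2.86, 5.77 and 2.53 in reprogrammed mammary and 4.36, 5.09 and 5.03 in adult lung. The B cell sum was 3.24, 4.65 and 1.54 in reprogrammed mammary and 2.81, 3.20 and 2.89 in adult lung, and the MHC class II sum was 5.27, 6.81 and 3.58 against 5.33 to 5.71. In each of these lists replicate 2 was the highest reprogrammed mammary array. Glycam1, given above with the milk genes, was also highest there (-0.11). In reprogrammed lung Glycam1 was highest on replicate 1 (6.38), where the B cell sum was 7.19. The part that lymphoid cells had in the Glycam1 values was not tested. Cd3e, a chain of the T cell receptor complex, had -0.97, 2.60 and -2.67 in reprogrammed mammary, against 0.25, 0.59 and 0.66 in adult lung (difference -0.85, SE 1.61, adjusted p = 0.763). With limma, 0 of 7 MHC class II genes and 0 of 7 neutrophil genes passed in either direction, and 0 of them had an unadjusted p below 0.05. Of 20 T and NK cell genes 3 fell (15%, against 11.5% of all features), 5 without reprogrammed mammary replicate 2, and 1 without any of 4 other arrays (adult lung replicate 2 or 3, reprogrammed mammary replicate 1 or 3). Gzma, granzyme A of cytotoxic lymphocytes, had -6.42, -4.36 and -6.27 in reprogrammed mammary, against -2.16, -0.54 and -0.83 in adult lung, with 1 reprogrammed mammary array above background (difference -4.50, SE 0.76, adjusted p = 0.00167).

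Of 13 tested macrophage genes 4 fell and 1 rose (38.5% called, against 25.9% of all features). When 1 array was left out, 3 or 4 fell and 0 to 2 rose. Chil3 and Ear1, which alveolar macrophages make, fell, with -4.81, -2.86 and -1.54 in reprogrammed mammary, against 1.30, 1.35 and 1.35 in adult lung for Chil3 (difference -4.40, SE 0.87, adjusted p = 0.00402) and -3.39, -1.89 and -1.42 in reprogrammed mammary, against 0.62, 0.75 and 0.83 in adult lung for Ear1 (difference -2.96, SE 0.52, adjusted p = 0.00213). Csf1r, the receptor for macrophage colony-stimulating factor, and Mertk, a receptor for dying cells, fell too, with 1.1, 1.59 and 0.27 in reprogrammed mammary, against 2.41, 3.05 and 2.80 in adult lung for Csf1r (difference -1.77, SE 0.55, adjusted p = 0.0364) and -0.61, -0.72 and -1.34 in reprogrammed mammary, against 1.58, 1.26 and 1.18 in adult lung for Mertk (difference -2.23, SE 0.30, adjusted p = 0.000457). The Csf1r call was lost without any 1 of the 6 arrays other than reprogrammed mammary replicate 2 (adjusted p of 0.0632 to 0.134). C1qa, a complement component of tissue macrophages, was the member that rose, with -0.14, 1.89 and -1.05 in reprogrammed mammary, against -2.02, -1.53 and -1.49 in adult lung (difference 1.91, SE 0.63, adjusted p = 0.0464), but the call was lost without any 1 of the 6 arrays other than reprogrammed mammary replicate 3 (adjusted p of 0.0774 to 0.138). Of 30 tested chemokine ligands 6 rose and none fell (20% called, against 25.9% of all features). Cxcl1, a neutrophil attractant, had 4.73, 5.45 and 5.17 in reprogrammed mammary, against 2.04, 2.00 and 2.27 in adult lung (difference 3.01, SE 0.41, adjusted p = 0.000476), and Ccl8 had -0.90, 3.51 and -0.80 in reprogrammed mammary, against -4.40, -4.68 and -4.46 in adult lung, again highest on replicate 2 (difference 5.12, SE 1.11, adjusted p = 0.0069). Ppbp, a platelet chemokine, had -6.62, -7.19 and -7.14 in reprogrammed mammary, against -1.48, -0.36 and -0.24 in adult lung, at least 21.6-fold lower (adjusted p = 2.92e-05).

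Ligands and receptors of the ErbB family that passed in the main fit rose, 5 of 13 tested and none lower. Areg, amphiregulin, the ligand through which oestrogen drives duct growth, had 5.63 and 5.71 in reprogrammed mammary (no value on the replicate 2 array), against 0.00, -0.19 and 0.20 in adult lung (difference 5.67, SE 0.45, adjusted p = 3.77e-05). Btc, betacellulin, another ligand of the family, had -0.65, -1.58 and -1.08 in reprogrammed mammary, against -5.19, -4.49 and -4.37 in adult lung, with 2 adult lung arrays above background (difference 3.58, SE 0.39, adjusted p = 0.000147). Erbb4, a receptor needed for lactation, had -2.31, -3.54 and -2.48 in reprogrammed mammary, against -6.27, -7.25 and -7.00 in adult lung, at least 4.46-fold higher (adjusted p = 0.0015), a call lost with the normexp background correction (adjusted p = 0.153) and with the authors' deposited log2 values (0.0845). Other probes of Erbb4 gave differences of 2.81 (adjusted p = 0.000822) and 2.15 (0.054, not called), against 4.06 for the probe used. Egf itself had -4.02, -3.85 and -4.40 in reprogrammed mammary, against -2.89, -2.93 and -2.72 in adult lung and did not pass (difference -1.24, SE 0.53, adjusted p = 0.112).

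In the Wnt list 7 of 23 members rose and 3 fell. Wnt5a, a ligand of the non-canonical branch, had 2.34, 2.28 and 2.66 in reprogrammed mammary, against -3.05, -2.66 and -2.58 in adult lung (difference 5.19, SE 0.58, adjusted p = 0.000162), and Sfrp1, a secreted Wnt antagonist, had 0.25, 0.49 and 0.44 in reprogrammed mammary, against -2.84, -2.44 and -1.65 in adult lung (difference 2.70, SE 0.52, adjusted p = 0.00357). Wnt2, a ligand of lung mesenchyme and endothelium, had -1.95, -2.13 and -1.59 in reprogrammed mammary, against 0.31, 0.21 and -0.06 in adult lung, without overlap, and just missed the threshold (difference -2.04, SE 0.69, adjusted p = 0.0513). The 3 that fell were Rspo3, which amplifies Wnt signals (difference -1.90), Axin2, a feedback inhibitor (-1.27), and Dkk3, a Dickkopf family member (-1.1), all named after their values were seen. The Rspo3 call was lost when any 1 of the 6 arrays was left out (adjusted p of 0.0757 to 0.133).

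TGF-beta and BMP genes divided, 5 of 24 higher and 7 lower. Inhba, the activin A subunit, had 0.65, 1.08 and 1.12 in reprogrammed mammary, against -2.64, -2.86 and -2.53 in adult lung (difference 3.63, SE 0.39, adjusted p = 0.00013). Bmp6 had -0.68, -0.30 and -0.10 in reprogrammed mammary, against 4.28, 4.0 and 3.86 in adult lung (difference -4.41, SE 0.39, adjusted p = 3.98e-05) and Bmp5 had -2.58, -2.51 and -2.63 in reprogrammed mammary, against 1.26, 1.55 and 1.59 in adult lung (difference -4.04, SE 0.35, adjusted p = 3.5e-05), both bone morphogenetic protein ligands. In the hedgehog list 2 of 13 rose and 2 fell (30.8% called, against 25.9% of all features). Shh, the ligand made by lung epithelium, had -7.08, -7.12 and -6.26 in reprogrammed mammary, against -2.29, -1.74 and -1.59 in adult lung, at least 9.52-fold lower (adjusted p = 0.000737), and Hhip, which binds it, had -3.50, -3.60 and -3.27 in reprogrammed mammary, against -0.01, -0.55 and -0.45 in adult lung (difference -3.12, SE 0.46, adjusted p = 0.000806). Cdon, a co-receptor, had 2.23, 1.59 and 2.42 in reprogrammed mammary, against -2.03, -1.1 and -0.97 in adult lung (difference 3.45, SE 0.51, adjusted p = 0.00081).

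Notch4, the endothelial receptor, was the largest change of the Notch list, with 0.55, 0.03 and 0.19 in reprogrammed mammary, against 4.20, 3.99 and 3.89 in adult lung (difference -3.77, SE 0.26, adjusted p = 1.04e-05), while Notch1 had 0.10, -0.20 and 0.08 in reprogrammed mammary, against 0.65, 0.39 and 0.39 in adult lung and did not pass (difference -0.48, SE 0.21, adjusted p = 0.127). Of 13 tested Notch genes 4 fell and 1 rose. Fgfr3 and Fgfr4, receptors for fibroblast growth factors, fell, with 0.03, -0.17 and 0.01 in reprogrammed mammary, against 2.40, 2.15 and 1.98 in adult lung for Fgfr3 (difference -2.22, SE 0.22, adjusted p = 7.18e-05) and -2.79, -2.68 and -2.71 in reprogrammed mammary, against -0.50, -0.40 and -0.45 in adult lung for Fgfr4 (difference -2.28, SE 0.34, adjusted p = 0.00092).

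Cytochrome P450 genes included large changes of both signs, with 17 of 59 tested lower and 6 higher. Cyp2b9 had -3.71, -4.29 and -4.69 in reprogrammed mammary, against 4.09, 4.40 and 3.97 in adult lung (difference -8.38, SE 0.42, adjusted p = 2.75e-06), while Cyp3a25, known as a liver enzyme, had 1.13, 1.1 and 1.5 in reprogrammed mammary, against -6.86, -7.28 and -7.43 in adult lung, at least 72.3-fold higher (adjusted p = 7.52e-06). Of 9 tested acute phase genes, known from the liver, 4 rose and none fell, and 2 rose without reprogrammed mammary replicate 1 or adult lung replicate 1. Fgb, the fibrinogen beta chain, whose promoter is printed above, had 3.46, 4.16 and 2.62 in reprogrammed mammary, against -6.16, -6.71 and -6.11 in adult lung, at least 326-fold higher (adjusted p = 2.6e-05), and Lcn2, lipocalin 2, had 4.54, 4.15 and 4.73 in reprogrammed mammary, against -0.20, 0.42 and 0.15 in adult lung (difference 4.35, SE 0.77, adjusted p = 0.00216). Fga, the fibrinogen alpha chain, did not pass, with -4.18, -3.52 and -4.71 in reprogrammed mammary, against -3.93, -3.76 and -4.35 in adult lung (difference -0.12, SE 0.53, adjusted p = 0.905). H2-M9, a class I gene outside that list, had 1.04, 1.48 and 1.86 in reprogrammed mammary, against -6.76, -7.20 and -7.35 in adult lung, at least 83.9-fold higher (adjusted p = 3.92e-06). Ptn, pleiotrophin, a heparin-binding growth factor, had 6.79 and 6.75 in reprogrammed mammary (no value on the replicate 2 array), against -1.87, -1.87 and -0.52 in adult lung (difference 8.19, SE 0.75, adjusted p = 8.81e-05).

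Of 10 tested amino acid transporters 5 rose and 1 fell, and 3 rose without reprogrammed mammary replicate 1 or 2 or adult lung replicate 2 or 3. Slc7a2, a cationic amino acid transporter, had 2.76, 1.79 and 2.78 in reprogrammed mammary, against -2.16, -1.85 and -2.13 in adult lung (difference 4.49, SE 0.53, adjusted p = 0.000224). Slc6a14, another amino acid transporter, was the member that fell, with -5.17, -4.46 and -5.11 in reprogrammed mammary, against -0.42, -0.30 and -0.44 in adult lung, 2 reprogrammed mammary arrays being above background (difference -4.53, SE 0.52, adjusted p = 0.000186). Of 13 tested matrix remodelling genes 6 rose and 1 fell. Mmp3, stromelysin, had 0.52, 0.84 and 0.73 in reprogrammed mammary, against -3.26, -3.60 and -2.88 in adult lung (difference 3.94, SE 0.55, adjusted p = 0.000608).

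Energy and protein synthesis genes were higher by modest amounts. Ribosomal protein genes rose in 68 of 78 tested members, with a median difference of 0.97, and 50 to 61 rose when 1 array was left out. Rps26 had 5.31, 5.22 and 5.18 in reprogrammed mammary, against 3.21, 3.18 and 3.36 in adult lung (difference 1.99, SE 0.18, adjusted p = 5.17e-05). Oxidative phosphorylation subunits rose in 43 of 80 and fell in 3, with 22 higher without reprogrammed mammary replicate 1 and 24 without adult lung replicate 1. Of 18 tested glycolysis genes 9 rose, with Aldoc, aldolase C, having 2.48, 1.73 and 2.11 in reprogrammed mammary, against -1.12, -1.49 and -1.29 in adult lung (difference 3.41, SE 0.61, adjusted p = 0.0023).

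Fat synthesis genes did not rise together, 3 of 18 higher and 6 lower. Dgat2, the last step of triglyceride synthesis, had 2.21, 2.80 and 2.78 in reprogrammed mammary, against -1.0, -0.52 and 0.91 in adult lung (difference 2.80, SE 0.61, adjusted p = 0.00713), and Scd1, a stearoyl-CoA desaturase, had 1.66, 1.22 and 1.37 in reprogrammed mammary, against 3.14, 3.67 and 3.08 in adult lung (difference -1.88, SE 0.31, adjusted p = 0.00138). Of 23 immediate-early genes 8 rose and none fell, with Myc having 3.22, 3.71 and 3.39 in reprogrammed mammary, against 0.34, 0.31 and 0.78 in adult lung (difference 2.96, SE 0.22, adjusted p = 1.37e-05) and Fos having 4.74, 4.45 and 4.72 in reprogrammed mammary, against 3.05, 3.27 and 3.48 in adult lung (difference 1.37, SE 0.34, adjusted p = 0.0133), a call lost without adult lung replicate 1 (adjusted p = 0.0538). Immediate-early genes also respond to cell dissociation, and lung and mammary gland were digested for different times, whose part was not tested. Of 31 cell cycle genes 1 rose, Tyms (difference 1.16, adjusted p = 0.0444), and it did not pass when any 1 array of the 2 groups was left out. Mki67, a proliferation marker, had -0.76, 0.09 and -1.13 in reprogrammed mammary, against -0.88, -0.59 and -0.37 in adult lung (difference 0.01, SE 0.75, adjusted p = 0.995).

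The difference of reprogrammed mammary from adult lung was set against adult mammary by the direct test of reprogrammed mammary minus adult mammary, in which the adult lung arrays cancel. Of 24504 features 1 passed (0.00408%), and 2430 had an unadjusted p below 0.05, 1234 higher and 1196 lower. Of 1018 list members 0 passed with limma, while 74 were higher and 28 lower at an unadjusted p below 0.05. The milk list had a median difference of 0.73 in this comparison and the alveolar type II list 0.54. The feature that passed was AK035950, a transcript without a gene symbol, which was chosen after its values were seen. It had -0.74, -0.88 and -0.91 in reprogrammed mammary, -0.33, -0.94 and -0.13 in reprogrammed lung, -3.57, -3.95 and -4.15 in adult mammary and -4.34, -4.66 and -4.34 in adult lung, and differed from adult mammary by 3.05, SE 0.23, adjusted p = 0.00228. Both reprogrammed groups were high and both adult groups were low, without overlap. A p that misses the threshold does not show that reprogrammed mammary and adult mammary were alike.

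Some genes were higher in reprogrammed mammary than in adult mammary on every array without passing. The arrays of these 2 groups did not overlap, in one direction or the other, for 5669 of 24504 features (23.1%). Lalba had 4.25, 2.73 and 3.26 in reprogrammed mammary, against 0.20, -1.54 and -0.19 in adult mammary, a difference of 3.92, SE 0.85, adjusted p = 0.194. Wnt5a had 2.34, 2.28 and 2.66 in reprogrammed mammary, against 0.05, -1.32 and 0.52 in adult mammary, a difference of 2.67, SE 0.58, adjusted p = 0.194, and Spp1, osteopontin, a secreted phosphoprotein found in milk and chosen after its values were seen, had 5.06, 3.79 and 4.32 in reprogrammed mammary, against -0.01, -0.51 and 1.27 in adult mammary, a difference of 4.14, SE 0.57, adjusted p = 0.0764. With weights estimated per array, 218 features were higher and 182 lower. The lowest weights were 0.123 for reprogrammed lung replicate 1, 0.382 for reprogrammed lung replicate 4 and 0.496 for adult mammary replicate 4. Lalba, Wnt5a and Spp1 were among those higher, and the list members Calca, Rspo1 and Fgg among those lower. Without weights Calca, Rspo1 and Fgg differed by -7.01, -3.73 and -2.54 (adjusted p = 0.169, 0.246 and 0.331). Calca and Rspo1 were chosen after their values were seen. As another setting, adult mammary replicate 4 and reprogrammed lung replicate 1 were left out together. Adjusted p was then 0.0559 for Lalba, 0.0434 for Wnt5a and 0.00934 for Spp1. It was 0.0841 for Calca, 0.125 for Rspo1 and 0.0498 for Fgg. The 2 arrays left out had 89.2% and 91.2% of probes above background and the narrowest spans of signal, 7.15 and 6.16 on the log2 scale. Reprogrammed lung replicate 4, whose weight was also low, was kept. It had 77.2% of probes above background and a span of 9.19.

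Against reprogrammed lung, 1 feature passed of 24504 (0.00408%). It was Olfr652, an olfactory receptor chosen after its values were seen, which had -6.97, -7.24 and -6.72 in reprogrammed mammary, not above background on any array, and -3.67, -4.37 and -4.55 in reprogrammed lung (difference -2.78, adjusted p = 0.0139). At an unadjusted p below 0.05, 935 features were higher and 1405 lower. Pearson's r across features between a reprogrammed mammary array and the group mean was 0.971 for reprogrammed lung on all 3 arrays and 0.964 to 0.976 for adult mammary.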

How the data were processed

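Amplified, Cy3-labelled total RNA was hybridised to 12 Agilent arrays, 3 in each of 4 groups, 1 sample per array. Groups were taken from the sample titles. The deposited processed signal is, per the file headers, a background-corrected intensity from Agilent Feature Extraction 10.5.1.1. Version 10.1 stands in the submitters' processing notes. The authors' deposited log2 values, used as an alternative, rank as the raw median signal does. Their medians are 6.78 to 6.79 on every array, and the scaling and centring behind them are not given in the sources used here.

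Outlier spots were dropped, spots of a probe averaged, log2 taken and the array's 75th percentile subtracted. Of 41174 probes, 24844 matched a symbol in the RefSeq table by accession and the other 16330 kept their accession. The probe with the highest mean stood for a symbol, which gave 32678 features, and 24504 (14748 with a symbol) were tested because their probe was well above background on all 3 arrays of at least 1 group. The model was limma's (version 3.58.1, run in R 4.3.3), with a mean per group over the 12 arrays and no covariate (8 residual and 2.38 prior degrees of freedom), Benjamini-Hochberg adjustment and a threshold of 0.05. No list was tested as a set. On simulated data with known changes the fit recovered 30.3% of features changed by 1 on the log2 scale, 70.1% at 2 and 95.5% at 4. Only 66 or 67 of the 24204 simulated features were changed at each size, with normal noise of the same spread in every group. A far larger share of features was called in the data, so these figures do not give the power of the comparisons here. The number of arrays limits the precision.

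The genes named with values were the 12 highest and 12 lowest differences without overlap of arrays, and in each of 63 gene lists up to 4 called members with the largest difference and the first member. Where others are named, the text says that they were chosen after their values were seen. The arrays compared, the lists and the rule were chosen with earlier results of these data known.

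A bound is the mean of the bright group over, per array of the dim group, the higher of the lowest level marked above background and the probe's own level. Alternatives were normexp with quantile normalization, the authors' values, other scalings, filters, probe rules, variance models, slide and replicate blocks, the 2 groups alone and leaving out arrays. The mean signal column planned for normexp was not in the files, and the median signal was used. Promoters were taken from the RefSeq table of the build GRCm38.p6, in which 11753 tested symbols have one.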

Additional observations from a re-analysis of the deposited data

Results flagged for a closer look

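Of the 24504 features, 1 differed between reprogrammed mammary and adult mammary by a test of that difference, in which the shared adult lung arrays cancel. AK035950, a transcript with no gene symbol here, was higher by 3.047 on the log2 scale (limma, adjusted p = 0.00228), and every array of both reprogrammed groups lay above every array of both adult groups. It was called under all 6 settings that left out 1 array of the 2 groups compared. It was not called with quantile normalization, slide as a fixed block, a replicate block or only the 2 groups fitted.

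Likewise 1 feature differed between reprogrammed mammary and reprogrammed lung. Olfr652 was lower in reprogrammed mammary by a log2 difference of -2.782 (limma, adjusted p = 0.0139), with no reprogrammed mammary array above background. It was not called when reprogrammed mammary replicate 1 or 2 was left out. Nor was it called with normexp, the authors' values, quantile normalization, slide as a fixed block, a replicate block, only the 2 groups or a variance trend.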

How the results depend on the processing

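The reprogrammed mammary minus adult lung counts (3549 higher, 2807 lower) were 1231 and 1187 with slide as a fixed block, 5778 and 4945 with only the 2 groups compared, 6732 and 5796 with array weights, and 4906 and 4234 when replicate 1 of reprogrammed lung and replicate 4 of adult mammary were both left out. Leaving out 1 array gave 2448 to 2714 higher and 1964 to 2131 lower. Under the other alternatives they stayed within 1.5 times. The share of calls that were higher was 55.8%, and between 50.1% (the authors' log2 values) and 56.4%. Of 147 genes followed, none reversed under any alternative where it had been called. With slide as a fixed block 29 lost their call, among them Ltf, Elf5, Trp63, Krt8, Krt19, Epcam, Lum, Col1a1 and Lcn2. Under every other tested setting at least 137 kept their side of the threshold, or 96 of 97 where features had to be above background on all 12 arrays. Within the shared slide 71 of 144 differences lay within 1 SD of the value over all arrays.

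Nothing states that replicate numbers pair the arrays. Deviations of same-numbered arrays from their group means correlated at 0.127, 0.164 and 0.0828 across features for replicates 1, 2 and 3. Each array correlated best with its own number. The replicate 2 arrays also shared a slide, so number and slide cannot be told apart for that pair. Reprogrammed mammary replicate 3 correlated at 0.054 with adult lung replicate 1, not far below its own number. These values are at most a weak hint and do not give the design. With a replicate block there were 2871 higher and 2268 lower, and 6 of the 147 genes lost their call (C1qa, Csf1r, Irx2, Atp5a1, Rspo3 and Tyms), with adjusted p of 0.0573 to 0.0793.

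For reprogrammed mammary minus adult mammary (1 higher, 0 lower) the counts were 5 and 0 with normexp, 5 and 1 with the authors' values, 7 and 1 with array median scaling, 5 and 1 with features above background on all 12 arrays, 2 and 0 with the median probe, 218 and 182 with array weights and 58 and 29 when both those arrays were left out. They were 0 and 0 with quantile normalization, slide as a fixed block, a replicate block or only the 2 groups. Leaving out 1 array gave 1 to 2 higher and 0 to 2 lower.

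For reprogrammed mammary minus reprogrammed lung (0 higher, 1 lower) they were 16 and 3 with normexp, 0 and 3 with array median scaling, 0 and 2 with no filter, 12 and 11 with array weights and 1 and 3 when both those arrays were left out. They were 0 and 0 with the authors' values, quantile normalization, features above background on all 12 arrays, slide as a fixed block, a replicate block, only the 2 groups or a variance trend. Leaving out 1 array gave 0 to 54 higher and 0 to 108 lower, the highest without reprogrammed lung replicate 4. The slide block leaves 4 fewer residual degrees of freedom. For the rest the cause was not tested. The number of arrays limits precision.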
